A study of Mus musculus with 12 samples.

Results

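Collagens are the triple-helical proteins of the extracellular matrix, and the genes described here are all those whose symbol in the array platform annotation is Col, a number, a and a number. The deposited table held 83 probes of 42 such genes among 41174 probes. Of these, 75 probes had enough values to be tested, and every one of the 42 genes kept at least 1 of them, so that the collagens made up 42 of 25821 features tested. The other 8 collagen probes had fewer than 2 values in some combination of genotype and dye and are left out of the tests.

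The study set KO mice lacking the AMPK alpha2 catalytic subunit (genotype AMPK alpha2 -/-, 6 animals) against WT mice (AMPK alpha2 +/+, 6 animals), and its title asks what AMP-activated protein kinase does in the heart. All 12 mice were 7 months old and carried the strain label C57B6, and both genotypes were otherwise handled alike, with no agent given beyond pentobarbital anaesthesia. RNA from the cardiac ventricle of each animal was hybridised to its own two-colour array together with a common reference, the Stratagene universal mouse reference RNA made from 11 mouse cell lines. Within each genotype the heart RNA carried Cy3 on 3 arrays and Cy5 on the other 3, on different animals. The values are log ratios of heart over reference. A positive value is a higher share of the message in heart RNA than in the cell-line mixture, and ratios of different genes do not order their absolute levels. A ratio near 0 can also come from a probe that is dim in both channels, because the scanner intensities were not used here. The ventricle is a mixture of cells, so fewer collagen-producing cells and less collagen RNA per cell cannot be told apart.

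Collagens are sorted by how they assemble. Fibrillar collagens form the load-bearing fibres between heart muscle cells and are made mainly by fibroblasts, while the type IV chains form the mesh of the basement membranes that surround each cardiomyocyte and capillary. Other classes sit on fibril surfaces, form beaded microfibrils or anchoring fibrils, span the cell membrane, or, as the multiplexins, carry glycan chains at the edge of basement membranes.

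The 12 arrays were uneven in completeness. Between 0.306% and 41.7% of probes were empty per array, and the emptiest were KO replicate 4, with 28 of the 42 collagen genes measured, and WT replicate 3, with 36. All 10 ventricular cardiomyocyte markers and all 10 endothelial markers lay above the reference on every array that measured them, and 8 of 11 fibroblast markers did too. Markers of other tissues were high on some arrays. The median of the liver list was 5.11 on KO replicate 6, against at most 0.50 on WT arrays, and the medians of the atrial list were 5.08 on KO replicate 1, 4.69 on WT replicate 2 and 2.85 on WT replicate 6. The adipocyte list had medians of 5.81 on KO replicate 1, where 2 of its markers were measured, 3.93 on WT replicate 2 and 2.70 on WT replicate 3. The single probe of the targeted gene, Prkaa2, read from 3.58 to 4.27 (median 3.93) on 5 KO arrays and from 3.99 to 4.23 (median 4.07) on 6 WT arrays. Nothing says whether that probe lies in the deleted part, so it does not check the genotype labels.

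Promoter windows are shown for the pair of chains with ratios above the reference that share 1 bidirectional promoter, and for a fibrillar pair below it. The windows run from 250 bases before to 50 bases after the annotated start and come from RefSeq on GRCm38.p6. RefSeq windows matched 33 of the 42 genes. Col4a1 (chr8:11312777-11313076, minus strand) and Col4a2 (chr8:11312555-11312854, plus strand) are transcribed in opposite directions from annotated starts 21 bases apart. The Col4a1 start has the higher coordinate, so the first bases of both transcripts overlap. In the Col4a1 and Col4a2 windows, the capitals mark the 78 bases that both hold, read from opposite strands. In the windows of Col1a2 (chr6:4505368-4505667, plus strand) and Col3a1 (chr1:45311288-45311587, plus strand), the capitals mark CCAAT on either strand, the box bound by the factor NF-Y.
Col4a1: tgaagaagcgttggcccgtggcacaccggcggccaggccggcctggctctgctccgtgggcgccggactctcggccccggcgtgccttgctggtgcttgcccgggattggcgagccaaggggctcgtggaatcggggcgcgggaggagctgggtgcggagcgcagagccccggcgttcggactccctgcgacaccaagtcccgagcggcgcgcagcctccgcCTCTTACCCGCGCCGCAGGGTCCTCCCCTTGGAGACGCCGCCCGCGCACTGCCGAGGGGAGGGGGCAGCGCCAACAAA
Col4a2: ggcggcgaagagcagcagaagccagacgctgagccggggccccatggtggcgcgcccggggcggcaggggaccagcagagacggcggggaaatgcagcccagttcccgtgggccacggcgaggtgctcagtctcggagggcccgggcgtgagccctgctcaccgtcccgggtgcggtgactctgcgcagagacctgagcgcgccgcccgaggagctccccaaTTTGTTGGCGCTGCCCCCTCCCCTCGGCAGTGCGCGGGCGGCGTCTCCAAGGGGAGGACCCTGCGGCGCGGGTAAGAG
Col1a2: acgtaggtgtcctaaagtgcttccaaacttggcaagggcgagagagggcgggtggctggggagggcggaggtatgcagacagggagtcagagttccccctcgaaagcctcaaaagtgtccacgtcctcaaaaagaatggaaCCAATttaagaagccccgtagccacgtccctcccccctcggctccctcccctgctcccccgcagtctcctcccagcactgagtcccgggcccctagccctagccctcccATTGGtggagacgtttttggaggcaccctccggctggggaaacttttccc
Col3a1: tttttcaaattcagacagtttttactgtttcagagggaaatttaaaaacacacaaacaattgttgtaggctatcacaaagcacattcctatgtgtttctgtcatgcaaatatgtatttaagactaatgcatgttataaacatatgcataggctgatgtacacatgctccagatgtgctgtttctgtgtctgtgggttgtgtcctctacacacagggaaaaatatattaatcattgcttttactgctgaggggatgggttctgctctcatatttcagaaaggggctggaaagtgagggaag

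CCAAT occurred 2 times in the Col1a2 window and 0 times in the Col3a1 window. Over all promoter windows of this length, 37.4% held CCAAT on either strand, against 36.1% of the 36 windows of collagen genes. For GGGCGG, the core of the GC box, the share was 61.1% of collagen windows and 35.7% of all windows, and for TATAAA it was 13.9% of collagen windows and 13.6% of all. The Col4a1 and Col4a2 windows are 74.0% and 73.7% G or C, the Col1a2 window 61.0% and the Col3a1 window 37.7%, with a median of 52.7% over all windows. These are letter matches only.

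Set against the reference RNA, the collagens lay on the low side in both genotypes. In KO ventricle 15 of 42 genes were below the reference and 7 above (limma, adjusted p under 0.05), against 23.5% below and 22% above among all features. WT ventricle had 17 below and 6 above, where all features had 23.8% below and 21.9% above. As shares of the collagens these are 35.7% below and 16.7% above in KO, and 40.5% below and 14.3% above in WT. Of the 42 genes, 14 were below in both genotypes and 6 above in both. On every array that measured them, 12 genes were below 0 and 6 above. The shares of all features called in both genotypes, or on 1 side of 0 on every array, were not computed. These counts are therefore a description only. A log2 ratio under -1 was found for 8 collagens in KO (background 6.89%) and 9 in WT (background 6.69%), and a ratio over 1 for 1 gene in each, Col4a2 (background 8.19% in KO and 7.72% in WT). The reference is a single RNA mixture, so these tests leave out its own spread.

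**Figure D1:**
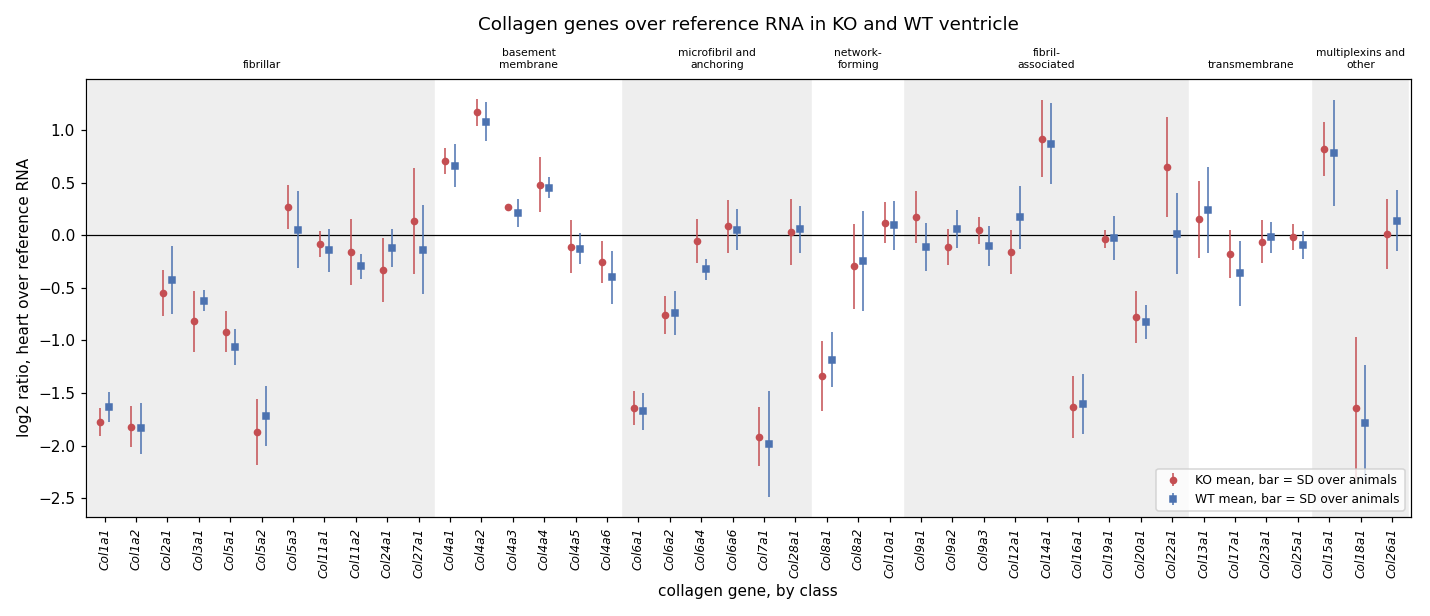
Mean log2 ratio of heart over reference RNA for the 42 collagen genes in KO (red circles) and WT (blue squares) ventricle, grouped by class, with bars of 1 SD over 4 to 6 animals. The major fibrillar chains and Col6a1, Col7a1, Col16a1 and Col18a1 lie below -0.6 in both genotypes, Col4a2 lies above 1, and the KO and WT bars overlap for all 42 genes.

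Among the fibrillar collagens, 7 of 11 were below the reference in each genotype and none was above. Of all features, 23.5% lay below and 22% above the reference in KO, and 23.8% below and 21.9% above it in WT. The type I chains were far below it. Col1a1, the alpha 1 chain of the most abundant fibre collagen, ranged from -1.94 to -1.64 (median -1.75) on 6 KO arrays and from -1.75 to -1.38 (median -1.70) on 5 WT arrays. All 11 values lay below 0 and the groups overlapped. The mean ratio was -1.78 ± 0.13 in KO and -1.63 ± 0.15 in WT (SD), which puts the reference 3.43-fold above KO heart and 3.09-fold above WT heart, as for all folds here if the deposited values are log2. For Col1a2, its partner chain, the KO values ran from -2.0 to -1.57 (median -1.91, n = 5) and the WT values from -2.15 to -1.41 (median -1.88, n = 6). The reference was 3.6-fold above KO and 3.57-fold above WT, and the KO range lay inside the WT range.

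Col3a1, the homotrimeric chain that forms fibres together with type I, was less far below. It ranged from -1.15 to -0.33 (median -0.83) in KO and from -0.78 to -0.51 (median -0.61) in WT (n = 6 each). The WT arrays lay inside the KO range. The type V chains nucleate fibrils. Col5a1 ran from -1.18 to -0.62 (median -0.93) in KO and from -1.25 to -0.77 (median -1.10) in WT (n = 6 each), and at gene level both groups lay below 0 throughout. In KO this rests on 1 of its 2 tested probes, at -1.74, while the other averaged -0.09 and was not called (limma, adjusted p = 0.596). Col5a2 ran from -2.38 to -1.51 (median -1.81) on 5 KO arrays and from -2.09 to -1.30 (median -1.72) on 6 WT arrays. At gene level Col5a1 and Col5a2 were below the reference on every array that measured them, and their groups overlapped. Col2a1, the main cartilage fibre chain, averaged -0.55 ± 0.22 in KO and -0.42 ± 0.32 in WT (SD, n = 6 each) and was called below the reference in both. That call rests on 1 of its 2 tested probes, at -1.11 in KO and -0.85 in WT, while the other probe was at 0.02 in KO and 0.00 in WT. The minor chains Col5a3, Col11a1, Col11a2, Col24a1 and Col27a1 had means between -0.33 and 0.27 in KO and between -0.30 and 0.05 in WT. Of these 5, Col24a1 passed the test in KO (adjusted p = 0.00238, against 0.238 in WT) and Col11a2 in WT (0.191 in KO, against 0.015 in WT), where its probes were at 0.16 and -0.52 in KO and at 0.06 and -0.62 in WT. The differences between genotypes for these genes had adjusted p = 0.941 and 0.954.

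Basement membrane collagens ran the other way, with 4 of 6 above the reference and 1 below it in each genotype. Of all features, 22% lay above and 23.5% below the reference in KO, and 21.9% above and 23.8% below it in WT. Col4a1 and Col4a2, which assemble into the ubiquitous type IV trimer and share the promoter printed above, were above it on all 12 arrays. Col4a1 ranged from 0.57 to 0.90 (median 0.69) in KO and from 0.37 to 0.96 (median 0.67) in WT (n = 6 each), the KO values lying inside the WT range. Col4a2 ranged from 1.01 to 1.38 (median 1.16) in KO and from 0.82 to 1.35 (median 1.08) in WT (n = 6 each). KO and WT arrays overlapped for both chains. Heart exceeded the reference 1.63-fold in KO and 1.58-fold in WT for Col4a1, and 2.25-fold in KO and 2.12-fold in WT for Col4a2. The Col4a3 and Col4a4 chains, known from the kidney glomerulus and mutated in Alport syndrome, averaged 0.27 ± 0.02 and 0.48 ± 0.26 in KO, and 0.21 ± 0.13 and 0.45 ± 0.10 in WT (SD, n = 6 each). Their partner chain Col4a5 averaged -0.11 ± 0.25 in KO and -0.13 ± 0.15 in WT (SD, n = 5 each) and passed in neither genotype. Col4a6 averaged -0.26 ± 0.20 in KO and -0.40 ± 0.25 in WT (SD, n = 6 each) and was called below the reference. The calls of Col4a4 and Col4a6 turn round with the probe that is read, as described further on. The WT call of Col4a3 was reached by no single probe (limma, adjusted p = 0.0554, 0.0868 and 0.124). Its KO probe means were 0.02, 0.43 and 0.37, of which the first was not called (adjusted p = 0.89).

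Microfibril and anchoring collagens had no member above the reference, where 22% of all features were above it in KO and 21.9% in WT. Below it were 3 of 6 members in KO and 4 of 6 in WT, against 23.5% and 23.8% of all features. Col6a1 and Col6a2 encode chains of the beaded type VI microfibril next to the cell surface. Col6a1 ran from -1.84 to -1.48 (median -1.55) on 5 KO arrays and from -1.94 to -1.41 (median -1.68) on 6 WT arrays. Col6a2 ran from -1.01 to -0.52 (median -0.76) on 5 KO arrays and from -1.07 to -0.57 (median -0.64) on 6 WT arrays. Both were below the reference throughout with overlapping groups. Col7a1, the anchoring fibril collagen of skin, had the lowest WT mean of all collagens. It ranged from -2.45 to -1.71 (median -1.83) in KO and from -2.66 to -1.33 (median -1.94) in WT (n = 6 each), so that the reference was 3.77-fold above KO and 3.97-fold above WT. Col6a6 and Col28a1 averaged 0.09 and 0.03 in KO, and 0.05 and 0.06 in WT, and were not called.

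In the network-forming class Col8a1, a short-chain collagen of vessel walls, was below the reference. It ranged from -1.76 to -0.81 (median -1.33) in KO and from -1.61 to -0.84 (median -1.13) in WT (n = 6 each), and the groups overlapped. Col8a2 averaged -0.30 ± 0.40 in KO and -0.25 ± 0.47 in WT (SD, n = 6 each). Col10a1, the hypertrophic cartilage collagen, averaged 0.12 on 4 KO arrays and 0.09 on 6 WT arrays. Neither passed in either genotype.

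The fibril-associated class was split. Col14a1, which binds to fibril surfaces, was above the reference, from 0.49 to 1.46 (median 0.87) in KO and from 0.52 to 1.41 (median 0.79) in WT (n = 6 each). Col16a1 averaged -1.64 ± 0.29 in KO and -1.60 ± 0.29 in WT (SD, n = 6 each), and Col20a1 averaged -0.78 ± 0.25 on 5 KO arrays and -0.82 ± 0.16 on 6 WT arrays (SD). Both were called below it in both genotypes. Col9a2, Col9a3 and Col19a1 had means between -0.11 and 0.06 over both genotypes, and none of them was called. All 4 transmembrane collagens had KO means between -0.18 and 0.15 and WT means between -0.36 and 0.24. Of their 8 tests 1 passed, for Col17a1 below the reference in WT (limma, adjusted p = 0.273 in KO and 0.0133 in WT). Calls above and below it took in 22% and 23.5% of all features in KO, and 21.9% and 23.8% in WT.

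The pair of multiplexins lay on opposite sides of the reference. Col15a1, found in the basement membranes of muscle and capillaries, ranged from 0.54 to 1.28 (median 0.82) in KO and from 0.32 to 1.70 (median 0.66) in WT (n = 6 each). It was above 0 on all 12 arrays. Col18a1, the precursor of endostatin, ranged from -2.12 to -0.31 (median -1.87) in KO and from -2.31 to -0.85 (median -2.01) in WT (n = 6 each). The KO value of -0.31 came from replicate 6, the array with high liver markers, and the other 5 KO arrays read between -2.12 and -1.67. The part of other tissue in that value was not tested. Col26a1 averaged 0.02 ± 0.33 on 6 KO arrays and 0.14 ± 0.29 on 5 WT arrays (SD).

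Probes of 1 gene often disagreed on the ratio to the reference. Of 25 genes with more than 1 tested probe, 9 had probes whose WT means differed by over 1 on the log2 scale, and the median range was 0.68. The 3 probes of Col1a1 averaged -2.14, -0.36 and -2.86 in KO and -1.98, -0.07 and -2.84 in WT. Those of Col1a2 averaged -0.48 and -3.16 in KO and -0.45 and -3.22 in WT, and those of Col16a1 averaged -0.09 and -3.14 in KO and -0.004 and -3.13 in WT. For each of these genes 1 probe lay far nearer to 0 than another. The Col1a2 probe nearest to 0 was called below the reference in both genotypes. That of Col1a1 was called in KO (limma, adjusted p = 0.0159) and not in WT (adjusted p = 0.728), and that of Col16a1 in neither. For Col3a1 the probe means were -0.25, -0.31 and -1.86 in KO and -0.04, 0.07 and -1.91 in WT. Those of Col5a1 were -0.09 and -1.74 in KO and -0.35 and -1.77 in WT. The same held above the reference, where the Col15a1 probes averaged -0.03 and 1.68 in KO and 0.10 and 1.57 in WT, and the Col14a1 probes 1.65 and 0.02 in KO and 1.37 and 0.34 in WT. Col4a4 had probes on opposite sides, at -0.27 and 1.23 in KO and -0.21 and 1.09 in WT, and so had Col4a6, at -0.92, 0.39 and -0.21 in KO and -1.16, 0.26 and -0.29 in WT. The probes of Col4a1 averaged 1.33, 0.89 and -0.08 in KO and 1.09, 0.79 and 0.11 in WT. The probes of Col4a2 lay close together, at 1.19 and 1.15 in KO and 1.17 and 1.00 in WT. The size of these ratios therefore depends on the probe. Their direction did too for Col4a4 and Col4a6, for Col2a1, and in WT for Col3a1 and Col11a2, all of which turned sign when 1 probe per gene was read. That setting reads only 1 probe of each gene, and only ratios called in either reading are listed, so the list is not complete. Col11a2 was not called in KO, where its probes also lay on opposite sides, at 0.16 and -0.52. In KO, 1 probe each of Col4a1 and Col15a1 also averaged below 0, and neither was called (limma, adjusted p = 0.748 and 0.87).

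**Figure D2:**
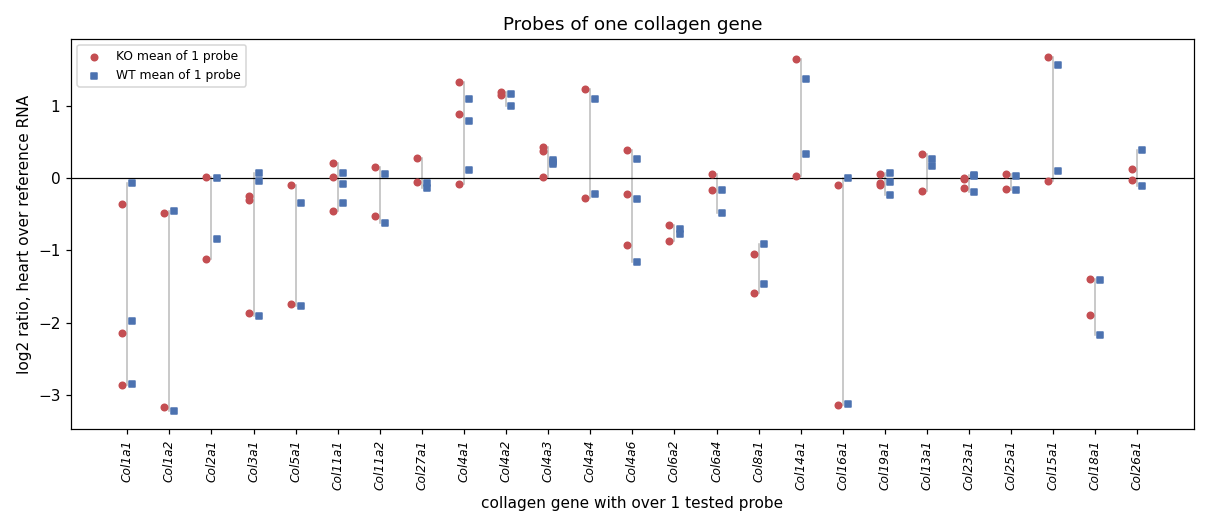
Mean log2 ratio of heart over reference RNA for each tested probe of the 25 collagen genes with more than 1, in KO (red circles) and WT (blue squares), joined by a grey line within a gene. Probes of Col1a1, Col1a2, Col3a1 and Col16a1 reach from between -0.5 and 0.1 down to between -3.3 and -1.8, and KO and WT lie side by side for each probe.

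No collagen gene was called different between KO and WT ventricle. Of 42 genes, 0 passed an adjusted p of 0.05 (limma with dye orientation as a term), against 0.00387% of all features, and the lowest adjusted p was 0.903. At an unadjusted p under 0.05 there were 4 genes, 9.52% of the collagens, against 5.28% of all features. The number was 1 without WT replicate 4, without KO replicate 5 or with a replicate block. It was 2 without WT replicate 1, 2 or 6 or KO replicate 1. It rose to 5 with quantile normalization or without WT replicate 3, and to 6 with array weights. Of the 4, 3 were higher in KO by their means (background 2.47%) and 1 lower (background 2.82%). The KO mean was the higher for 26 genes, which is 61.9%, against 49.7% of all features, and the lower for 16. That share was 47.6% without the 2 emptiest arrays, 50% in Cy3 alone and 52.4% without WT replicate 3 or WT replicate 5. It was 64.3% in Cy5 alone and 69.05% without WT replicate 2. The median difference was 0.03, against -0.0009 over all features. KO and WT arrays overlapped for all 42 genes, where 0.465% of all features had groups that did not overlap. The difference was under 0.2 in size for 35 genes and over 0.3 for 3, and the median standard error was 0.12.

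**Figure D3:**
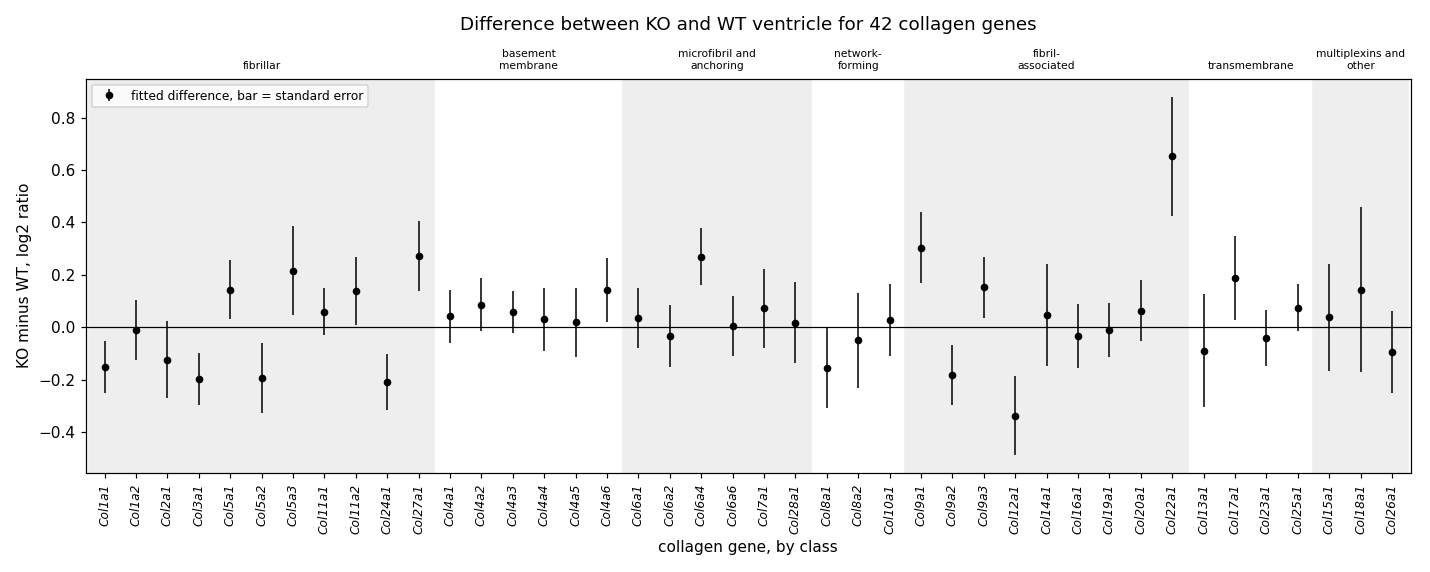
Fitted difference KO minus WT in log2 ratio for the 42 collagen genes, by class, with bars of 1 standard error. Col22a1 at 0.65 stands highest and Col12a1 at -0.34 lowest, the 6 basement membrane genes all lie between 0 and 0.2, and no gene passed the adjusted threshold.

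Col22a1, a fibril-associated collagen known from muscle-tendon junctions, had the smallest p. It ranged from 0.00 to 1.31 (median 0.60) on 5 KO arrays and from -0.49 to 0.64 (median 0.03) on 6 WT arrays. Of the 5 KO values, 2 lay above every WT value and the groups overlapped. The difference was 0.65 ± 0.23 (SE, unadjusted p = 0.014, adjusted p = 0.903). It was 0.72 on the arrays with heart RNA in Cy3 and 0.57 on those in Cy5, and 0.47 without KO replicate 1, an array with high atrial markers. Against the reference Col22a1 was called above in KO (adjusted p = 0.00493) and not in WT (adjusted p = 0.945).

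Col6a4, a type VI chain, ranked next. Its 5 KO values ran from -0.32 to 0.15 (median -0.08) and its 5 WT values from -0.40 to -0.15 (median -0.35), a difference of 0.27 ± 0.11 (SE, adjusted p = 0.92). The difference was 0.12 in Cy3 and 0.49 in Cy5. Against the reference Col6a4 was called below in WT (limma, adjusted p = 0.0053) and not in KO (adjusted p = 0.75). In WT its probe at -0.49 was called (adjusted p = 0.0027) and its probe at -0.16 was not (adjusted p = 0.18). Col12a1, a fibril-associated collagen of stretched tissues, ran from -0.54 to 0.10 (median -0.14) on 6 KO arrays and from -0.22 to 0.62 (median 0.13) on 5 WT arrays. It was the 1 gene of these 4 with the lower KO mean, a difference of -0.34 ± 0.15 (SE, adjusted p = 0.936), and the difference was -0.65 in Cy3 and -0.08 in Cy5. Col9a1, a cartilage chain, ran from -0.23 to 0.42 (median 0.20) on 5 KO arrays and from -0.34 to 0.32 (median -0.18) on 6 WT arrays, a difference of 0.30 ± 0.14 (SE, adjusted p = 0.936). Groups overlapped for all 3 genes.

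Beyond an unadjusted p of 0.05 the order continued with Col27a1 and Col3a1. Col27a1, a fibrillar collagen of cartilage, ran from -0.46 to 0.94 (median 0.14) in KO and from -0.63 to 0.37 (median -0.21) in WT (n = 6 each). Its arrays in Cy5 lay above those in Cy3 in both genotypes, and the difference was 0.23 within Cy3 and 0.31 within Cy5. For Col3a1, whose values are given above, the difference was -0.20 ± 0.10 (SE, adjusted p = 0.941), with -0.06 in Cy3 and -0.33 in Cy5.

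**Figure D4:**
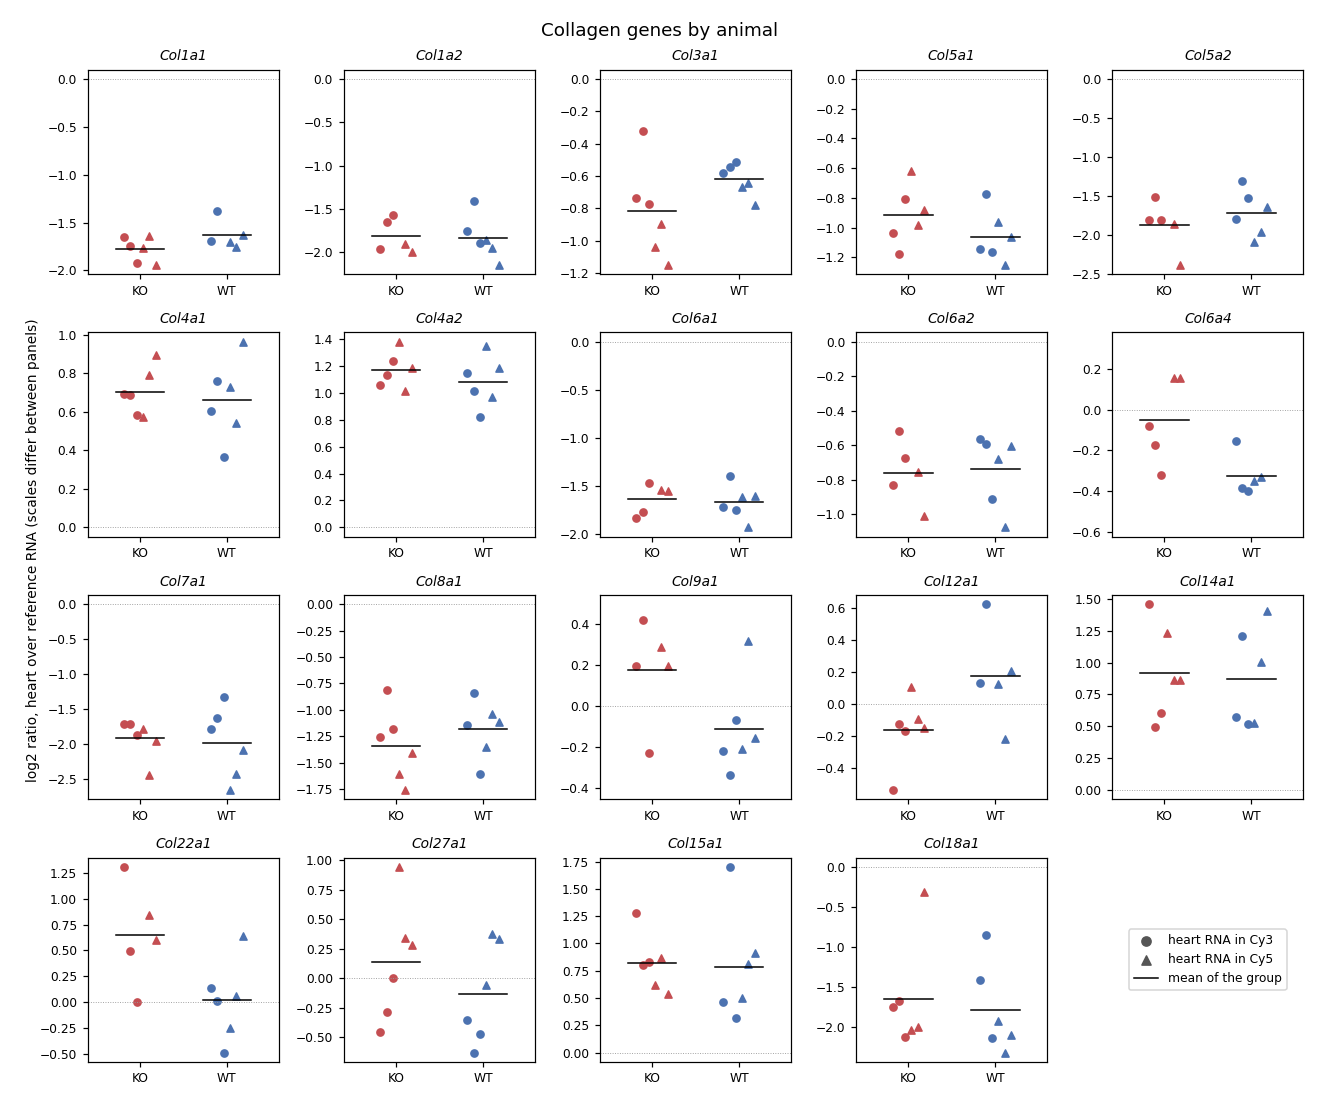
Log2 ratio of heart over reference RNA on each array for the 19 collagen genes described by array, KO left (red) and WT right (blue), with circles for heart RNA in Cy3, triangles for Cy5 and a line at the group mean. Each panel has its own scale; KO and WT points overlap in every panel, and the single high KO point of Col18a1 at -0.31 is replicate 6.

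For the structural chains the differences were small beside their errors. Col1a1 differed by -0.15 ± 0.10 and Col1a2 by -0.01 ± 0.11 (SE, adjusted p = 0.945 and 0.996). Col5a1 differed by 0.14 ± 0.11 and Col5a2 by -0.19 ± 0.13. Col6a1 differed by 0.04 ± 0.11, Col6a2 by -0.03 ± 0.12 and Col8a1 by -0.15 ± 0.15. Among the multiplexins Col15a1 differed by 0.04 ± 0.20. Over the alternatives its difference ran from -0.099 with a plain mean of its probes to 0.22 without WT replicate 2. It was -0.09 without WT replicate 3, and it changed sign under 8 of 26 alternatives. Col18a1 differed by 0.14 ± 0.32, and the difference of Col18a1 was -0.17 without KO replicate 6. Of the fibrillar class 5 genes had the higher mean in KO and 6 the lower, with a median difference of -0.01.

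All 6 basement membrane collagens had the higher mean in KO, against 49.7% of all features, by a median of 0.05. None passed the test (limma), and the lowest adjusted p was 0.953. Each of the 6 changed sign under at least 1 alternative, Col4a4 under 7 of 26 and Col4a5 under 6 of 25. Tested probes of Col4a1, Col4a3 and Col4a4 differed in the sign of KO minus WT. Col4a1 differed by 0.04 ± 0.10 and Col4a2 by 0.09 ± 0.10 (SE), and the largest difference was that of Col4a6 at 0.14 ± 0.12. Endothelial markers had the higher mean in KO for 9 of 10 genes, by a median of 0.20, and none passed. The median of that list ranged from 2.27 to 3.29 over KO arrays and from 2.28 to 2.65 over WT arrays. Fibroblast markers had the higher mean in KO for 3 of 11 genes, with a median of -0.12 and none passing, and the list median ranged from 1.18 to 1.92 over KO arrays and from -0.05 to 2.01 over WT arrays, the lowest being WT replicate 3 with 6 of the 11 measured. Their part in the collagen differences was not tested.

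Whether the difference between KO and WT depended on dye orientation was tested by an interaction term. Of 42 collagen genes 0 passed (limma, lowest adjusted p = 0.935), and 0 had an unadjusted p under 0.05, against 4.81% of all features. Of the 25 genes with more than 1 tested probe, 15 had probes that differed in the sign of KO minus WT.

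For 8 pairs of collagens that share a trimer, a fibril or a class, no correlation from animal to animal passed the test. After removal of genotype and dye, Pearson's r over 10 to 12 arrays lay between -0.00125 for Col5a1 with Col5a2 and 0.455 for Col6a1 with Col6a2. None of the 8 pairs tested had an adjusted p under 0.897 (two-sided permutation test, 100000 resamples), and none had an unadjusted p under 0.05 over all arrays. Col15a1 with Col18a1 had r = 0.187 over 12 arrays, 0.813 within Cy3 and -0.524 within Cy5 (permutation p = 0.511, 0.0444 and 0.311, adjusted p = 0.897, 0.267 and 0.622). Spearman's rho was 0.227 for Col6a1 with Col6a2 (p = 0.503), and r was 0.0501 without the 2 arrays farthest from the median of Col6a1. For Col1a1 with Col1a2, r was 0.0998 over 10 arrays and -0.691 without 2 arrays (permutation p = 0.785 and 0.0672, adjusted p = 0.897 and 0.537). For Col4a1 with Col4a2, r was 0.166 over 12 arrays, 0.429 within Cy3 and -0.0108 within Cy5 (adjusted p = 0.897, 0.817 and 0.992 by permutation). Over all 231 pairs of the 22 collagen genes measured on every array, the median r was 0.0417.

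Several collagen genes lie side by side in the genome. Besides Col4a1 with Col4a2, the pairs with no protein-coding gene between them are Col3a1 with Col5a2, Col4a3 with Col4a4, Col4a5 with Col4a6, Col6a1 with Col6a2 and Col9a1 with Col19a1. At gene level Col3a1 and Col5a2 were both called below the reference, Col4a3 and Col4a4 both above it, and Col6a1 and Col6a2 both below it. With 1 probe per gene, Col4a4 was below it in both genotypes and Col3a1 was not called in WT. Col4a6 was below it while Col4a5 passed in neither genotype, as was the case for Col9a1 and Col19a1. On chromosome 4, which also carries Prkaa2, lie 5 collagens, Col27a1, Col15a1, Col16a1, Col8a2 and Col9a2, with differences KO minus WT of 0.27, 0.04, -0.03, -0.05 and -0.18.

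The genes that modify, process, bind or anchor collagen had no call either, with 0 of 62 measured genes passing. Of the enzymes and chaperones that modify and fold procollagen in the endoplasmic reticulum, 22 of 23 were measured, and 11 of them lay below the reference in each genotype, where 23.5% of all features did in KO and 23.8% in WT. KO had the higher mean for 16 and the lower for 6, with a median difference of 0.05. P4ha1, a catalytic subunit of prolyl 4-hydroxylase, ranged from -1.43 to -0.89 (median -1.14) in KO and from -1.60 to -1.26 (median -1.50) in WT (n = 6 each). The groups overlapped and the difference was 0.29 ± 0.10 (SE, adjusted p = 0.903), with 0.07 in Cy3 and 0.50 in Cy5. Its paralog P4ha2 differed by -0.19 ± 0.11, and Mia2, which helps load procollagen into transport carriers, by -0.31 ± 0.13 (SE, adjusted p = 0.945 and 0.927).

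Among the genes of procollagen processing and cross-linking, 18 of 20 were measured, with 9 higher and 9 lower in KO by their means and a median of -0.01. Fmod, Bgn and Pcolce had the smallest p. Fmod, the fibril-binding fibromodulin, averaged -0.75 ± 0.24 on 6 KO arrays and -0.29 ± 0.58 on 5 WT arrays (SD), a fitted difference of -0.48 ± 0.23 (SE, adjusted p = 0.939). Bgn, biglycan, differed by -0.21 ± 0.12 and Pcolce, an enhancer of procollagen cleavage, by -0.19 ± 0.12 (SE, adjusted p = 0.945 each). This list spanned the widest range over the reference. Lox, the cross-linking lysyl oxidase, averaged -3.79 ± 0.42 in KO and -3.87 ± 0.19 in WT (SD, n = 5 each), while the fibril-binding proteoglycan Dcn averaged 3.24 ± 0.45 on 6 KO arrays and 3.29 ± 0.42 on 5 WT arrays, and Lum averaged 3.91 ± 0.50 on 6 KO arrays and 4.06 ± 0.41 on 5 WT arrays. Both are also on the list of fibroblast markers, of which Pdgfra, Thy1 and Cd248 were below the reference on every array that measured them. The proteoglycans Fmod and Bgn of the same pathway list had means below 0 in both genotypes.

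Of the collagen receptors, 11 of 12 were measured, with 5 higher and 6 lower in KO and a median of -0.01. Itgb1, the common beta subunit of the collagen-binding integrins, averaged 1.10 ± 0.10 in KO and 0.96 ± 0.12 in WT (SD, n = 6 each), a difference of 0.14 ± 0.09 (SE, adjusted p = 0.945). The tyrosine kinase receptor Ddr1 differed by 0.10 ± 0.09 and the integrin subunit Itga2 by 0.14 ± 0.14 (SE), with Itga2 at 0.49 in Cy3 and -0.14 in Cy5. Of the basement membrane partners of type IV collagen, 11 of 12 were measured, with 6 higher and 5 lower in KO and a median of 0.01. Lama5 averaged 0.68 ± 0.14 in KO and 0.87 ± 0.23 in WT (SD, n = 6 each), a difference of -0.20 ± 0.08 (SE, adjusted p = 0.92). Lama2, the laminin chain of muscle, differed by 0.24 ± 0.13 (SE), with 0.54 in Cy3 and -0.07 in Cy5, and Agrn, agrin, by -0.12 ± 0.08. In each genotype 6 of these 11 were above the reference and 2 below, where all features had 22% above and 23.5% below in KO and 21.9% above and 23.8% below in WT.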

How the data were processed

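Ventricle RNA of 12 mice was measured on 2-colour arrays against 1 common reference. The authors deposited 1 signed log ratio per probe and array; no source states the base, and the deposited values are read as log2 from their range, which leaves tests unaffected. Were they natural logs, every fold would be larger (for Col1a1, reference over KO heart, 5.91 in place of 3.43). Each array's median lay between -0.029 and 0.068, so the values were already centred, and arrays of opposite dye orientation correlated at 0.835 or more, so they were already turned to heart over reference. No further normalization was applied. Genes were named from the platform annotation, and all 42 collagen symbols equal the RefSeq symbol of their identifier. Probes needed 2 values in each of 4 combinations of genotype and dye; of 41174 probes 36826 passed. Probes of a gene were combined by an additive fit of probe and array, which allows for probes missing on an array. limma 3.58.1 in R 4.3.3 fitted KO, WT and dye orientation over all 25821 features with Benjamini-Hochberg adjustment and a threshold of 0.05; the script was tested on simulated data. Nothing says how the animals were bred, so p-values measure the spread between these 12 animals. Array number limits precision. Replicate numbers did not pair KO with WT arrays: correlations of same-numbered deviations ran from -0.206 to 0.0447. Members, classes, pathway and marker lists were chosen with earlier results of these data known. Named genes are the main chains of types I, III, IV, V, VI, VIII, XV and XVIII, the 3 highest and 3 lowest WT ratios, the 6 smallest p, and the 3 smallest p of each pathway list; Lox, Dcn and Lum were added after their values were seen. Col6a3 was not analysed here. Promoters are RefSeq windows on GRCm38.p6. Alternatives covered scaling, probe choice, filters, arrays left out and each dye alone.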

Additional observations from a re-analysis of the deposited data

Results flagged for a closer look

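In 4 of 84 groups, each a collagen gene in 1 genotype, 1 array lay far from the others by Dixon's criterion, where chance gives about 1 in 20, or 4.2. Col18a1 read -0.31 on KO replicate 6, against -2.12 to -1.67 on the other KO arrays. That array also had a median of 5.11 for 6 liver markers, and the part of liver RNA was not tested. Col7a1 read -2.45 on KO replicate 5, against -1.96 to -1.71 on the others. Col11a1 read -0.53 on WT replicate 6, against -0.14 to 0.04, and Col6a4 read -0.15 on WT replicate 1, against -0.40 to -0.33.

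A Col27a1 probe left out of the tests for too few values read 2.72 on KO replicate 3. Its 2 other KO values were at most 0.15 and its 6 WT values at most 0.44. The tested probes of Col27a1 averaged -0.05 and 0.28 in KO and -0.14 and -0.07 in WT.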

How the results depend on the processing

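No collagen gene and no related gene was called between KO and WT under any alternative run. The median difference of the collagens ran from -0.003 to 0.08; 29 of 42 genes changed sign under at least 1 alternative and 13 did not. A replicate block, although the numbers do not pair the arrays, gave 0 called collagens and a median of 0.05. Leaving out each array in turn gave 0 called between the genotypes, 14 to 16 below the reference in KO, 7 to 8 above in KO, 16 to 17 below in WT and 6 above in WT. Keeping only features with values on all arrays left 14 collagens, of which 7 were below and 4 above the reference in KO and 6 below in WT, since fewer genes were tested. Ratios turned sign with the probe read. With 1 probe per gene Col2a1 read 0.0217 in KO and 0.0015 in WT, Col3a1 0.0813 in WT, Col11a2 0.0603 in WT, Col4a4 -0.27 in KO and -0.21 in WT, and Col4a6 0.39 in KO and 0.26 in WT. Col4a4 and Col4a6 read the same with values on all arrays. With probes of a RefSeq accession alone, chosen after seeing the data, Col4a4 read the same and Col4a6 was 0.0898 in KO. Over single-gene values and alternatives, 34 lost a call and 18 gained one with the same sign, and 15 turned sign, of which 5 were no longer called and 10 were called on the other side. Signal over background was not assessed, since intensities were not used here.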

Other observations

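Among the markers of activated fibroblasts, none a collagen, 5 of 10 had the higher mean in KO and 5 the lower, with a median difference of -0.0002 and none passing (limma, lowest adjusted p = 0.929). The list median ranged from -0.18 to 0.18 over KO arrays and from -0.36 to 0.06 over WT arrays. Smooth muscle and pericyte markers had the higher mean in KO for 7 of 10 genes, by a median of 0.13, and none passed. All 7 dividing-cell markers tested were below the reference on every array that measured them. The list median ran from -3.38 to -2.89 over KO arrays and from -3.65 to -2.23 over WT arrays. The cell lines of the reference divide in culture, and the part of that in the collagen ratios was not tested.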
